A study of Homo sapiens with 2 samples.

Results

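The Hippo pathway genes examined here are the 10 genes YAP1, WWTR1, TEAD1, TEAD2, TEAD3, TEAD4, LATS1, LATS2, CCN1 and CCN2, out of 20163 protein-coding genes of the GENCODE annotation of hg19, and all 10 were found on it. The members were listed by name, with earlier results of these data known. The rule that takes their peaks uses only position. The data come from SOX9 ChIP-seq in HT-29, a cell line from a human colorectal adenocarcinoma, with 1 library immunoprecipitated with an anti-SOX9 antibody and 1 library of input DNA from the same line. Both came from cells that had been grown overnight and fixed for 15 min in 1% formaldehyde, and the labels name no other treatment. The labels give DMEM as the medium, whereas the methods give McCoy's 5A. With 1 library of each kind there is no replicate error, and the intervals given below cover counting error only. Each library held 12320108 tags after the authors had thinned the input to match the ChIP. A SOX9 peak was assigned to a gene when its summit lay within 1 kb of any annotated transcription start site (TSS) of the gene, or inside the gene or the 20 kb around it. By this rule 30 of the 17847 SOX9 peaks were assigned.

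The Hippo pathway restrains cell growth. In it, the kinases LATS1 and LATS2 phosphorylate the coactivators YAP (the product of YAP1) and TAZ (the product of WWTR1) and keep them out of the nucleus. When the kinases are inactive, YAP and TAZ enter the nucleus and bind the TEAD transcription factors, which hold the DNA contact. Their best known target genes are CCN1 (formerly CYR61) and CCN2 (formerly CTGF), which encode secreted matrix-associated proteins. LATS2 is itself a target, as part of a negative feedback. In the intestine YAP and TAZ are known for their part in regeneration after injury.

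SOX9 peaks stood at the start of 8 of the 10 genes, namely YAP1, TEAD1, TEAD3, TEAD4, LATS1, LATS2, CCN1 and CCN2, and were missing from WWTR1 and TEAD2. Of all protein-coding genes, 44.8% had a summit that near to a TSS, by the limit of 1 kb. Inside the gene or the 20 kb around it, 9 of the 10 genes had a summit, all but TEAD2, against 65.3% of all protein-coding genes. The median length was 70.7 kb for the 10 genes against 27.2 kb for all protein-coding genes, although CCN1, CCN2, TEAD2 and TEAD3 lie below the median of all genes. Over the 1295.1 kb searched, the density was 2.32 peaks per 100 kb, against 1.25 per 100 kb for all protein-coding genes. Taken gene by gene, the median density was 2.29 per 100 kb for the 10 genes. Over all protein-coding genes it was 1.19, with quartiles of 0 and 2.45, so the member median lay within these quartiles. With 10 members chosen by hand and with earlier results of these data known, these figures are a description and were not tested.

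The 30 peaks fell into 3 kinds of place. TEAD4 had a pair of peaks at its start and the other 7 bound promoters had 1 each, which gave 9 promoter peaks. Introns held 16 peaks, 7 of them in TEAD1, 3 each in YAP1 and WWTR1, 2 in TEAD3 and 1 in LATS2, and the rule assigned 1 more on a coding exon of WWTR1 and 1 upstream of the longest WWTR1 transcript. The remaining 3 lay at the starts of neighbouring genes, at −30 bp from a TSS of COMMD2 near WWTR1, at −124 bp from a TSS of RPL10A (a ribosomal protein gene) near TEAD3, and at 61 bp from a TSS of KATNA1 (a subunit of the microtubule-severing enzyme katanin) near LATS1. These 3 held 90, 85 and 34 tags and lay nearer to the starts of these neighbours than to any start of a pathway gene. Negative distances are upstream of the TSS, and the TSS base counts as 0.

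**Figure D1:**
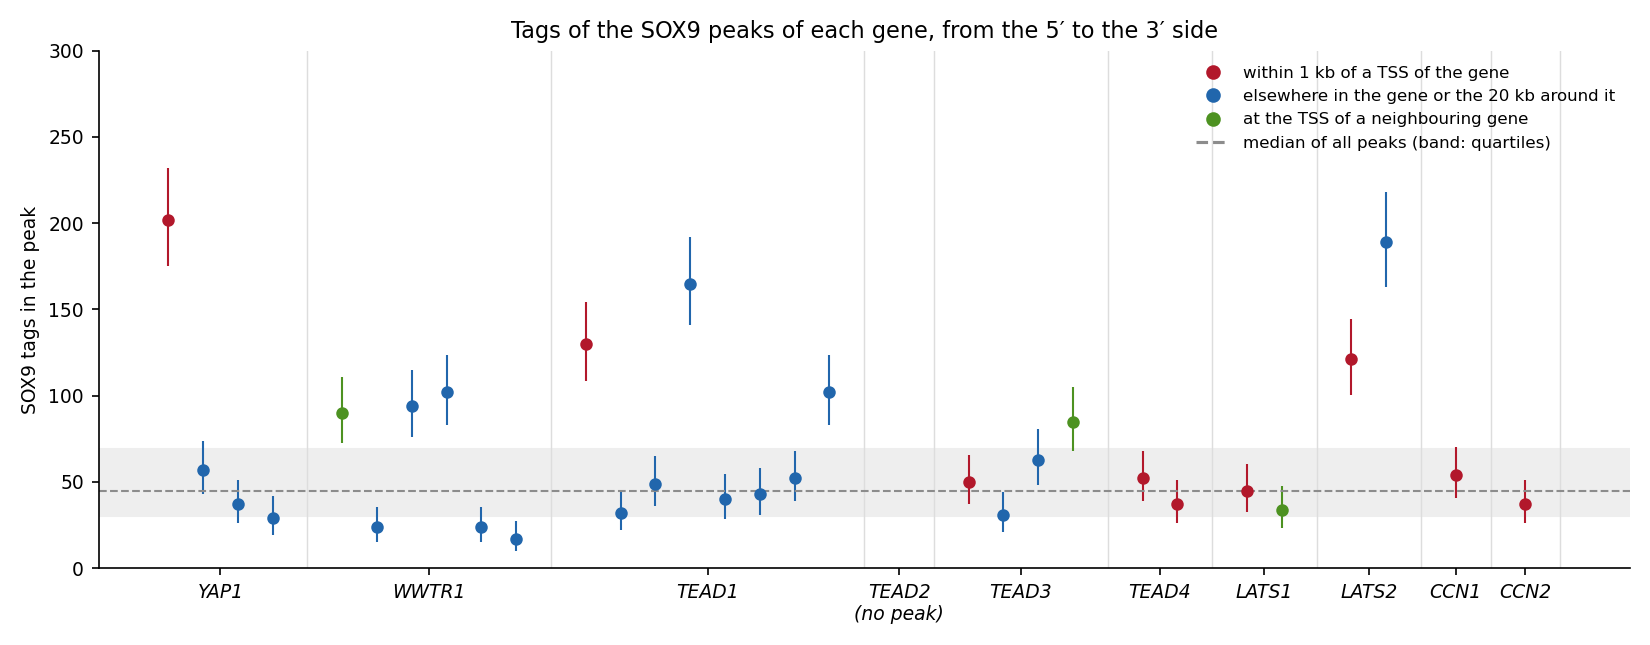
SOX9 tags (vertical axis, with exact Poisson 95% intervals for counting error) in each of the 30 peaks, grouped by gene and ordered from the 5′ to the 3′ side of the gene. Colours mark peaks within 1 kb of a TSS of the gene (red), elsewhere (blue) and at the TSS of a neighbouring gene (green), and the dashed line is the median of 45 tags over all peaks. The promoter peak of YAP1 (202 tags), an intronic peak of LATS2 (189) and an intronic peak of TEAD1 (165) stand highest, and TEAD2 has no peak.

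The promoter peaks of the pathway ranged from 37 to 202 tags. YAP1 had 202 tags, TEAD1 had 130, LATS2 had 121, CCN1 had 54, TEAD4 had 52 and 37, TEAD3 had 50, LATS1 had 45 and CCN2 had 37. The order of the first 3 against the others exceeds counting error, because the lowest bound among YAP1, TEAD1 and LATS2 is 100.4 tags and the highest among the others is 70.5. Among the others, neighbours in the order do not differ beyond their counting intervals. Including the 3 peaks of neighbouring genes, the 12 peaks no farther than 1 kb from any TSS had a median of 53 tags (quartiles 43 and 97.8), against 54 (quartiles 37 and 80) for the 9631 peaks of that kind in the genome. The 9 promoter peaks of the pathway genes alone had a median of 52 tags (quartiles 45 and 121). By median tags, the bound promoters of the pathway as a group were near the middle of all bound promoters.

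The genes also differed in the amount of input DNA around them. The input signal over the 1 Mb around a gene, relative to the median of all autosomal windows of that size, was 1.99 at LATS2, 1.83 at TEAD1, 1.82 at WWTR1, 1.75 at TEAD2 and 1.69 at YAP1. It was 1.24 at CCN1, 1.11 at TEAD3, 1.03 at LATS1, 0.96 at TEAD4 and 0.87 at CCN2. All member peaks with more than 90 tags lay in the first group, and so did the 4 with the fewest tags, 17, 24, 24 and 29 in WWTR1 and YAP1. The part of the local input in the tag counts was not tested. Tags divided by the local input level around each summit were 120.3 at the YAP1 promoter, 67.3 at TEAD1, 59.8 at LATS2, 54.7 and 38.9 at TEAD4, 44.9 at TEAD3, 43.6 at LATS1 and at CCN1, and 42.9 at CCN2. After this division YAP1 still had the most tags of the 9 promoter peaks, and the others lay between 38.9 and 67.3. The YAP1 interval was also the widest, at 3099 bp, and the division does not correct for width. By the ratio of SOX9 to input tags over the interval, YAP1 (3.55) was below TEAD1 (6.84), CCN2 (6.0), TEAD3 (5.2) and LATS2 (3.67). It was above LATS1, CCN1 and both TEAD4 peaks by this ratio. The counting interval of the YAP1 ratio, 2.63 to 4.87, overlaps those of all the other promoter peaks, so its place in this order was not resolved.

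YAP1, which encodes the coactivator YAP, lies on the plus strand at chr11:101981178-102104155 and had 4 SOX9 peaks. The promoter peak, at chr11:101980534-101983632, was the widest of the 30 at 3099 bp, with its summit at −153 bp and a fold enrichment of 7.71 by MACS. Its 202 tags (175.1 to 231.9) put it at the 97.2nd percentile of peaks near TSSs. From the signal maps, the interval held 199 tags in the SOX9 library and 56 in the input, a ratio of 3.55 (2.63 to 4.87). The signal in this interval rose in 2 stretches. The first, from −217 to −58 bp, reached 29 in the SOX9 library against 6 in the input, and the second, from 1095 to 1798 bp downstream of the TSS, reached 21 against 7. The tag count of YAP1 is thus the sum of a narrow summit at the promoter and a broad one at the beginning of the gene, and the height of the summit, 29, is at the 71.9th percentile of peaks near TSSs.

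Inside YAP1, the summits lay 46954, 68048 and 87440 bp downstream of the TSS, in introns 2, 3 and 4 of the canonical transcript. They held 57, 37 and 29 tags. The SOX9 signal at the peak of intron 2 reached 45, above that at the promoter, against an input signal of 4, which is at the 94.9th percentile for height among peaks away from TSSs. The peak of intron 4 reached 26 in the SOX9 library against 4 in the input, and that of intron 3 reached 16 against 5. By MACS the fold enrichments were 20.6 in intron 2 and 20.52 in intron 4, which are next to the highest of the 30 peaks, and 7.14 in intron 3.

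The sequences at the YAP1 promoter and at the summits in introns 2 and 4 are shown because they differ in the motifs they hold near the summit. The search for motifs took both strands and the 100 bp to each side of a summit. The motifs were the core of the TEAD site (GGAATG), a single copy of the SOX9 consensus (a pair of bases that are each A or T, then CAA, then A or T, then G), CCAAT, to which NF-Y binds, the AP-1 site (TGACTCA or TGAGTCA) and the ETS site (CCGGAAG). The promoter stretch, at chr11:101980993-101981053, has a TEAD core in capitals 4 to 9 bp upstream of the summit. The stretch of intron 2, at chr11:102028058-102028143, has a pair of SOX9 consensus copies in capitals that face each other, 48 to 64 bp upstream of the summit. In the stretch of intron 4, at chr11:102068578-102068678, the capitals mark an inverted pair of SOX9 sites with a spacer of 4 bp, the first copy exact and the other mismatched, and a separate exact copy near the end. The summit in intron 3, which is not shown, has an AP-1 site (TGAGTCA) 26 to 32 bp downstream and no SOX9 consensus within 100 bp. Over whole intervals, the promoter peak held 4 copies of the SOX9 consensus and the peak of intron 3 held 2. All 3 stretches shown are read from hg19 on the plus strand.
YAP1 promoter: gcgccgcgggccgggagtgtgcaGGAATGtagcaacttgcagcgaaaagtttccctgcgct
YAP1 intron 2: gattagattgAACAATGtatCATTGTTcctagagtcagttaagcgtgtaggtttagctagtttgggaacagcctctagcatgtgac
YAP1 intron 4: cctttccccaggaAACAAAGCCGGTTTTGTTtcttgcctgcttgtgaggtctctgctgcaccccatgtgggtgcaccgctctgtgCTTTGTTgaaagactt

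WWTR1, which encodes TAZ, the paralog of YAP, lies on the minus strand at chr3:149235022-149454501 and differed from YAP1 in having no SOX9 at its canonical start. Within 500 bp of that TSS the signal reached 3 in the SOX9 library and 3 in the input, and its mean was 0.47 in the SOX9 library and 0.69 in the input. At least this signal was reached by 75.6% of all protein-coding genes. The summit nearest to any of the 11 annotated TSSs of WWTR1 was at −2896 bp from the most upstream one, with 24 tags, and it lay in the annotated 3′ exon of COMMD2. Around this TSS the mean input of 0.69 was the lowest of the 10 genes, while the input level over 1 Mb was 1.82.

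The peaks of WWTR1 that held the most tags were in intron 2. At 54680 bp from the canonical TSS the peak had 94 tags (76.0 to 115.0), with a SOX9 signal of 28 against an input signal of 3. At 75909 bp it had 102 tags (83.2 to 123.8), with a signal of 23 against 4. Both were above the 93rd percentile by tags among peaks away from TSSs. Farther down, a peak in intron 3 had 24 tags and the one on the coding exon had 17, with signals of 12 against 1 and 11 against 4. The nearest TSS to the peak on the exon, at 2330 bp, was that of the small nuclear RNA pseudogene RNU6-1098P. This peak had the highest empirical FDR of the 30 peaks, 0.06%.

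Both strong intronic summits of WWTR1 lay close to known motifs, and not to the same ones. The sequences are given on the minus strand, the strand of the gene. In the first, at chr3:149321097-149321157, the capitals mark a TEAD core (here as CATTCC) followed by an exact SOX9 consensus, 2 to 7 bp upstream and 13 to 19 bp downstream of the summit. In the second, at chr3:149299857-149299912, they mark a pair of AP-1 sites, at 3 and at 28 bp downstream of the summit, with no SOX9 consensus within 100 bp.
WWTR1 intron 2, 54680 bp: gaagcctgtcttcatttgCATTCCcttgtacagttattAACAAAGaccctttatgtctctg
WWTR1 intron 2, 75909 bp: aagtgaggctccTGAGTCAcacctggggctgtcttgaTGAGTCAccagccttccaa

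The 4 TEAD genes, which encode the DNA-binding partners of YAP and TAZ, ranged from 8 SOX9 peaks to none. TEAD1, on the plus strand at chr11:12695968-12966284, had the most peaks of the 10 genes and 613 tags in all. Its promoter peak at chr11:12695364-12696327 had its summit at −215 bp and held 130 tags (108.6 to 154.4). It was the tallest of the promoter peaks, with a SOX9 signal of 55 against an input signal of 8, and had the highest fold enrichment of the 30 peaks, 22.27. Only 3.85% of protein-coding genes reached a SOX9 signal of 55 within 500 bp of the canonical TSS.

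The 7 intronic peaks of TEAD1 were spread over introns 2 and 3, which are long. In intron 2, the summits at 6079, 19430, 49505 and 71603 bp held 32, 49, 165 and 40 tags. In intron 3, those at 128388, 140631 and 171610 bp held 43, 52 and 102 tags. The peak at 49505 bp exceeded all other intronic TEAD1 peaks beyond counting error, with a lower bound of 140.8 tags, and its signal reached 39 in the SOX9 library against 5 in the input. The peak at 171610 bp reached 45 against 7, and lay at −2764 bp from a TSS of an unnamed long noncoding RNA gene. The weakest in relation to the input was that at 19430 bp, with a signal of 18 against 10, a tag ratio of 2.38 (1.40 to 4.17) and an FDR of 0.05%.

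The sequences at TEAD1 are shown for the summit with the most tags and for a pair of SOX9 consensus copies. At chr11:12745448-12745498, in intron 2, a TEAD core in capitals overlaps the summit base. At chr11:12836588-12836668, in intron 3, the capitals mark exact SOX9 consensus copies that face each other with 5 bases between them, 33 to 51 bp downstream of the summit at 140631 bp. Both are on the plus strand. At the promoter of TEAD1 none of the motifs was found within 100 bp of the summit, and the whole interval of the peak held 3 TEAD cores.
TEAD1 intron 2, 49505 bp: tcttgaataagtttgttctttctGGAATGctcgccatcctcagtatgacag
TEAD1 intron 3, 140631 bp: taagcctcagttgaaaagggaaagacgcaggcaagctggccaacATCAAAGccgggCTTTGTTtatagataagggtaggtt

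By tags, the promoter peak of TEAD3 and the TEAD4 peak at −482 bp were near the median of peaks near TSSs. The TEAD4 peak at −18 bp was smaller, at the 24.9th percentile. TEAD3, on the minus strand at chr6:35441374-35464856, had its promoter summit at −412 bp, with 50 tags (37.1 to 65.9) and a signal of 18 against 5 in the input. A pair of peaks at 8848 and 10669 bp, in introns 1 and 2, held 31 and 63 tags, and the second was taller than the promoter peak, at 35 against 6 in the input. TEAD4, on the plus strand at chr12:3068496-3149842, had neighbouring peaks with summits at −482 and −18 bp from the canonical TSS, with 52 and 37 tags and signals of 15 against 3 and 19 against 4. The rest of TEAD4 and the 20 kb around it held no peak. The TEAD4 summit at −18 bp lay beside 3 TEAD cores, shown in capitals as CATTCC on the plus strand at chr12:3068548-3068577.
TEAD4 start: ctCATTCCagccctCATTCCgcgCATTCCa

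TEAD2, on the minus strand at chr19:49843852-49865714, was the only one of the 10 genes without an assigned peak. The nearest summit lay at −81408 bp from one of its 9 TSSs. Within 500 bp of the canonical TSS the signal reached 8 in the SOX9 library against 6 in the input, and the mean signal was 4.16 against 3.50, a ratio of 1.19. A SOX9 signal of at least 8 was present at 55.8% of all protein-coding genes. Outside that window the signal was 10 against 1 at 800 bp, 12 against 3 at −1216 bp and 12 against 7 at −1280 bp from the canonical TSS. No SOX9 peak was called at TEAD2 at this depth.

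The kinase genes LATS1 and LATS2 both had a SOX9 peak on the TSS, which was higher at LATS2. LATS2, on the minus strand at chr13:21547175-21635725, had its promoter summit at −45 bp, with 121 tags (100.4 to 144.6) and a signal of 50 in the SOX9 library against 9 in the input. LATS1, on the minus strand at chr6:149979289-150039241, had its summit at 7 bp, with 45 tags (32.8 to 60.2) and a signal of 15 against 4. The ratio of tags to the input over the interval was 3.67 (2.48 to 5.56) at LATS2 and 3.20 (1.76 to 6.15) at LATS1, and these intervals overlap. The input also held more tags at LATS2, 33, than at LATS1, 15.

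In intron 2 of LATS2, 27559 bp downstream of the TSS, a second peak held 189 tags (163.0 to 218.0), the most of any intronic peak of the pathway and the 99.1st percentile among peaks away from TSSs. Its signal reached 49 in the SOX9 library against 9 in the input, and over its 2481 bp the tag ratio was 3.0 (2.24 to 4.06). The nearest TSS of any gene, at 4640 bp, was that of the small nuclear RNA pseudogene RNU4-9P. None of the motifs was found within 100 bp of this summit. The whole interval held 1 copy of the SOX9 consensus, 1 inverted pair of SOX9 sites, 4 copies of CCAAT and 1 TEAD core. At the start of LATS2 the strand of the gene holds a TEAD core followed by an exact SOX9 consensus, both in capitals, at chr13:21635697-21635721 on the minus strand. They lie 54 to 68 bp downstream of the promoter summit, within the first exon.
LATS2 start: cccgtGGAATGccAACAATGtagcg

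CCN1 and CCN2, the target genes, are short and had 1 SOX9 peak each, placed on the proximal promoter. CCN1, on the plus strand at chr1:86046444-86050272, had its summit at −63 bp, with 54 tags (40.6 to 70.5) and a signal of 26 against 8 in the input. Its tag ratio to the input, 2.29 (1.39 to 3.87), was the lowest of the 30 peaks, and its negative log10 p times 10 of 92.39 was the lowest of the promoter peaks. CCN2, on the minus strand at chr6:132269316-132272512, had its summit at −94 bp, with 37 tags (26.1 to 51.0) and a signal of 13 against 5. With 36 tags in the SOX9 library and 6 in the input over its interval, the tag ratio at CCN2 was 6.0 (2.50 to 17.42). The height of the CCN2 peak was low, at the 12.1st percentile of peaks near TSSs. CCN1 was higher by tags and by height and CCN2 by the tag ratio, so the order of the pair differs with the measure. The intervals overlap for the tags and for the ratios, and the order was not resolved.

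The promoter sequences of CCN1 and CCN2 are shown because YAP is known to act on both genes through TEAD sites in their promoters. The stretch of CCN2, at chr6:132272562-132272686 on the minus strand, holds the summit, and its capitals mark 3 TEAD cores and a CCAAT on the opposite strand (ATTGG). The summit base lies within the most downstream of these TEAD cores. The stretch of CCN1, at chr1:86046319-86046399 on the plus strand, holds the summit and has a TEAD core in capitals (CATTCC) 42 to 47 bp upstream of the summit.
CCN2 promoter: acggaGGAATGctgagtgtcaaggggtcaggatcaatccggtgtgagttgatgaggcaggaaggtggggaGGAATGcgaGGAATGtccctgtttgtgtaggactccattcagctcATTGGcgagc
CCN1 promoter: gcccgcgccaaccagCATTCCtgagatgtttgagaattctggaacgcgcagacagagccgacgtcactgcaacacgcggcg

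Over the 12 peaks near a TSS, which include those at neighbouring genes, the TEAD core was the most frequent of the motifs and CCAAT was rare. Of the 12 peaks near a TSS, 6 had GGAATG within 100 bp of the summit, namely those of YAP1, LATS2, CCN1 and CCN2 and both of TEAD4, which is 50%. Among all 9631 SOX9 peaks within 1 kb of a TSS the share was 8.50%. CCN1, CCN2 and LATS2 are known target genes of YAP and TAZ, whose partners are the TEAD factors, and the TEAD4 peaks adjoin each other. The share of 50% thus depends on which genes were listed, and the difference was not tested. CCAAT was present in 1 of the 12, that of CCN2, a share of 8.33% against 30% of all such peaks. The longer NF-Y motif was found in none of the 12, against 14.1% of all such peaks. The SOX9 consensus was found in 2 of the 12 (LATS2 and the COMMD2 promoter), against 8.83%. ETS sites were in 2 of the 12, both at neighbouring genes (COMMD2 and KATNA1), against 15.1%. GC content, which affects such matches, was 72.3% in the median member window and 67.2% in the median window of all peaks near TSSs.

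Away from TSSs, the SOX9 consensus was the most frequent of the motifs. Of the 18 peaks farther than 1 kb from any TSS, 8 had the SOX9 consensus (44.4%), against 34.3% of all 8216 such peaks. The TEAD core was in 2 (11.1% against 17.6%), AP-1 sites in 3 (16.7% against 20.9%) and CCAAT in 1 (5.56% against 22.3%). An inverted pair of SOX9 sites with a spacer of 4 bp and up to 2 mismatches in 1 copy was found in 1 peak, that of YAP1 intron 4, against 6.62% of all such peaks. When exact copies facing each other with 3 to 5 bases between them were sought, a search chosen after seeing the sequences, YAP1 intron 2 and TEAD1 intron 3 had one, against 0.864% of all such peaks. These shares describe letters in a window of the reference sequence, and the members are too few for more than a description.

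Distal peaks of the pathway held more tags than other distal peaks, but so did their regions in the input. The 18 peaks had a median of 46 tags (quartiles 31.2 and 86.2), against 36 (quartiles 25 and 53) over all distal peaks. The median local input level around them was 1.82, against 1.19. Divided by the local input level, the medians were 26.7 for the pathway and 30.8 for all distal peaks, so that the direction turned. The tallest bins had a median of 20 in the member peaks and 18 in all distal peaks. CpG dinucleotides were rare in both, with an observed over expected ratio of 0.20 in the member windows and 0.226 in all distal windows, against 0.995 and 0.856 near TSSs.

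**Figure D2:**
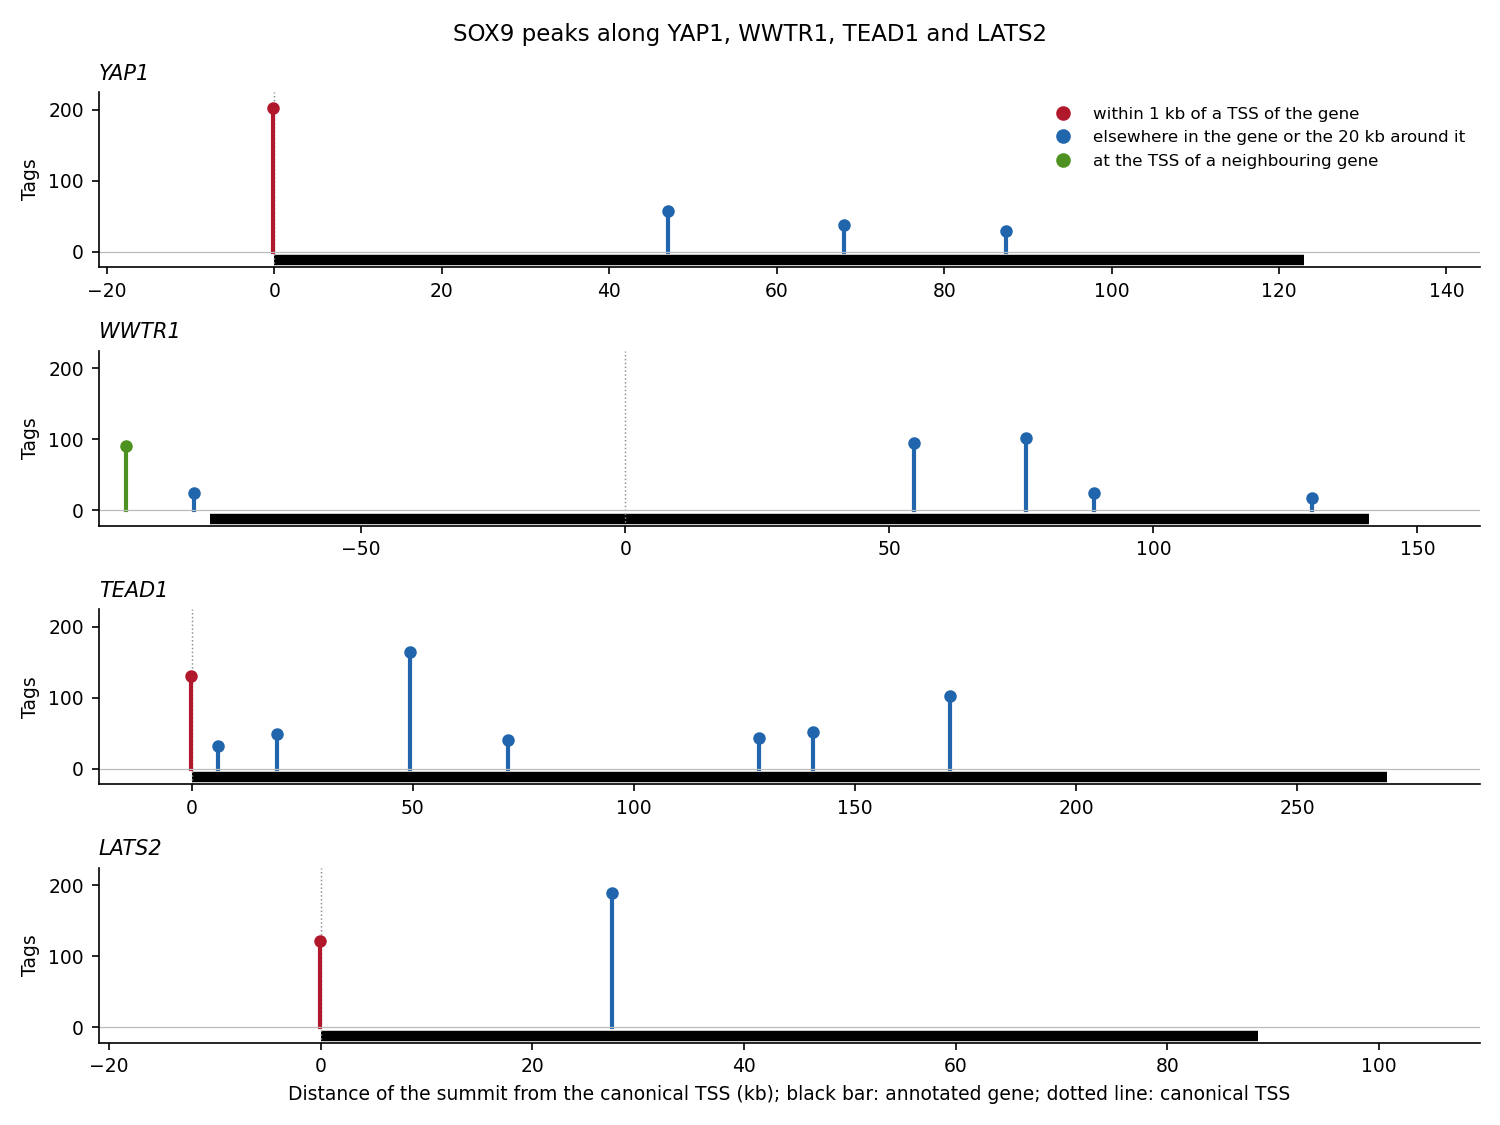
SOX9 peaks along the 4 genes with the most tags, as tags (vertical axis) against the distance of the summit from the canonical TSS in kb, with a distance scale of its own for each gene. The black bar is the annotated gene, and colours mark peaks within 1 kb of a TSS of the gene (red), elsewhere (blue) and at a neighbour's TSS (green). WWTR1 has no peak at its canonical TSS and its highest intronic peaks, 94 and 102 tags, 54680 and 75909 bp downstream of it.

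The rest of the pathway was read from 41 further genes, also listed with earlier results of these data known. Of these, 22 had a summit no farther than 1 kb from a TSS (53.7%, against 44.8% of all protein-coding genes), a share that was not tested. In the core kinase module, 4 of 5 genes had one. They were STK4, which encodes a kinase that activates LATS (79 tags), its paralog STK3 (35 tags), the scaffold gene SAV1 (40 tags) and MOB1A, which encodes a LATS cofactor (38 tags). MOB1B, the paralog of MOB1A, had none at its start and 1 elsewhere in the gene or the 20 kb around it. Among regulators upstream of the kinases, 12 of 22 had one, led by NF2, which encodes the tumour suppressor merlin (121 tags, signal 50 against 11 in the input), AMOTL2, which encodes an angiomotin family protein (111 tags), FRMD6 (98 tags, 67 against 7) and the phosphatase gene PTPN14 (83 tags). Of the VGLL cofactor genes, 1 of 4 had one, VGLL4, whose product competes with YAP for TEAD (27 tags). Of 6 further YAP and TAZ target genes, 4 had one, namely AXL (120 tags, summit at −901 bp), ARHGAP29 (63 tags), ANKRD1 (18 tags) and CRIM1 (15 tags). Of the other CCN genes 1 of 4 had one, CCN3, with 103 tags.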

How the data were processed

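Both libraries were made by the authors from sonicated chromatin of HT-29 cells. The authors aligned single-end reads of 50 nt to hg19 (BWA per the labels), kept unique alignments without duplicates, reduced the input at random to the alignment number of the ChIP and called peaks with MACS at a p cut-off of 1e-07. Each peak as deposited has a count of ChIP tags, a score (10 times the negative log10 of the p-value from MACS), a fold enrichment and an FDR. The authors' fold enrichment is a ratio of ChIP to a local background. The FDR deposited by the authors is a percent, which MACS estimates by exchange of ChIP and input. The deposited signal maps give the signal as tags extended to 150 bp per bin of 32 nt, so an extended tag covers about 5 bins. These values are the authors' and were not normalized further.

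Summits and genes were joined on GENCODE release 44 mapped to hg19. Tags of both libraries in an interval were obtained as the summed signal over 5. Signal heights at peaks are the highest bin within 250 bp of the summit. Intervals of tags are exact Poisson, and those of tag ratios exact conditional binomial, at 95%. The local input level is the mean signal over 1 Mb, in place of the median that had been planned, because the median bin of such windows was typically 0. No test between libraries was made, since each group has 1 library. Tags and motifs were set beside all peaks and all protein-coding genes. The members and gene lists were chosen with earlier results of these data known. Named genes are the members, the genes at assigned peaks, and up to 4 genes per further list with the most promoter tags. Sequences were read from the GRCh37 (hg19) genome. Alternatives changed the peak limit, the summit, the TSS set, the distances, the motif window and the signal window. The joins and motif searches recovered 100% of planted cases in a test on simulated data. The tools were matplotlib 3.10.9, pandas 2.3.3, SciPy 1.17.1, NumPy 2.4.6 and Python 3.11.15.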

Additional observations from a re-analysis of the deposited data

How the results depend on the processing

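Between 7 and 9 of the 10 genes had a promoter summit under the alternatives tried. With peaks limited to a negative log10 p times 10 of at least 100, CCN1 dropped out, and 7 of 10 genes stood against 35.9% of all protein-coding genes. Within 3 kb of a TSS, WWTR1 was added through the summit in the COMMD2 exon, and 9 of 10 genes stood against 47.5% of all protein-coding genes. The median tags were 51 over all 30 peaks, 74 over the 20 peaks above the stricter limit, 50 without the peaks of neighbouring genes and 43.2 after division by the local input, the last 2 being choices made after seeing the data. The median ratio of SOX9 to input signal at the summits was 5 for the highest bin and 2.86 for the mean over 1 kb to each side. Motif counts rose when whole intervals were searched in place of 100 bp to each side, to 19 peaks with the SOX9 consensus, 4 with paired sites, 17 with CCAAT, 1 with the NF-Y motif, 15 with the TEAD core, 8 with AP-1 and 5 with ETS sites. Over whole intervals the shares of member peaks and of all peaks were 63.3% and 50.1% for the SOX9 consensus, 13.3% and 7.75% for paired sites, 56.7% and 60.7% for CCAAT, 3.33% and 14.6% for the NF-Y motif, 50% and 38.1% for the TEAD core, 26.7% and 21.9% for AP-1, and 16.7% and 18.6% for ETS sites. Within 100 bp of the summits the shares were 26.7% and 12.7% for the TEAD core and 6.67% and 26.4% for CCAAT, so the differences in these 2 motifs were smaller over whole intervals. Exact pairs 3 to 5 bases apart gave 2 peaks in place of 1. With the stricter peak limit CCAAT, AP-1 and ETS were each left in 1 peak. No paired analysis was possible because each group held 1 library. The depth of 12320108 tags left 17 to 202 tags in a peak, so counting error is large for the weaker ones.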
